A study of Mus musculus with 17 samples.

Results

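Igf2bp3 and 6 other genes of fetal growth were followed across mouse liver libraries of Khdc3 genotype and ancestry: the RNA-binding proteins Igf2bp1, Igf2bp2 and Igf2bp3, the surface proteoglycan Gpc3, the transcriptional repressor Zhx2, the RNA-binding protein Lin28b and the chromatin protein Hmga2. The set was chosen by name around Igf2bp3, which was selected on its measured values: it was higher in KO_star than in KO livers of these same libraries. The contrast of KO_star and KO is therefore given as a description with no test, for every gene of the set. Of the 7 named genes, 6 have a row among the 27020 genes of the deposited table, and Lin28b was not analysed here. Of these 6, 5 reached 10 or more in 3 or more libraries and were tested among 16157 genes, while Igf2bp1 did not reach that level.

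Total RNA of liver from mice aged 8 weeks was sequenced after depletion of ribosomal RNA, and all groups shared that age, tissue and kit. KO_star (n = 6) were Khdc3-null mice with heterozygous parents and with WT as well as KO grandparents. WT_star (n = 4) were genetically WT mice of the same mixed descent. KO (n = 3) were Khdc3-null mice from KO ancestors, and WT (n = 4) were WT mice from WT ancestors. The labels call the WT_star and KO_star mice females, and they give no sex for KO and WT, no strain, litter or batch, and no detail of the Khdc3 null allele. Comparing the 4 groups asks whether liver expression follows the mouse's own Khdc3 genotype or that of its ancestors. Whether mice within a group were littermates is not stated, so each p-value speaks for the spread between these samples only. A library is called by its group and its number in the labels.

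IGF2-binding proteins attach to messenger RNAs and affect their stability, transport and translation. In mice and humans they are made mainly in the embryo and fetus, and Igf2bp3 is known for its low level in adult liver and its return in liver tumours. A small circuit surrounds them: Lin28b blocks maturation of the let-7 microRNAs, and let-7 represses messages with a matching site, Hmga2, Lin28b and the Igf2bp genes among them. Zhx2 is known in mouse liver as a repressor that lowers Afp, H19 and Gpc3 after birth. Gpc3 is a heparan sulfate proteoglycan of the fetal liver cell surface that limits growth, and Hmga2 is an architectural chromatin protein of embryonic cells.

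Sequences of this circuit are shown because let-7 acts by pairing of its seed with a message, and these windows hold letters that match it. In RefSeq on GRCm38.p6, 9 mature names of the let-7 family share 1 seed, bases 2 to 8 of the microRNA, in capitals in the first line. The other lines are 22-base windows of the annotated untranslated 3-prime ends in GENCODE M21 on GRCm38, written in the sense of the message, with the 7-base complement of the seed (CTACCTC) in capitals.
mmu-let-7a-5p: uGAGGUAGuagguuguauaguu
Igf2bp3, chr6:49086787-49086808, minus strand: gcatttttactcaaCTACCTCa
Igf2bp2, chr16:22059473-22059494, minus strand: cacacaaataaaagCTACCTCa
Igf2bp1, chr11:95961778-95961799, minus strand: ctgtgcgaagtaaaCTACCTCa
Hmga2, chr10:120364224-120364245, minus strand: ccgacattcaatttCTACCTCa

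Igf2bp3 and Igf2bp2 each held 1 such match, while Igf2bp1, Lin28b and Hmga2 each held 4. Gpc3 and Zhx2 held 0, which says only that these letters are not in those windows. Among 20988 genes with an annotated untranslated 3-prime end, 8.95% held at least 1 match and 0.152% held at least 3. The untranslated ends of Igf2bp1 (6337 bases), Lin28b (4445 bases) and Hmga2 (3014 bases) are long, and of genes with an end of similar length (80% to 125% of it) 0.167%, 0.223% and 0.0829% held at least as many matches. For Igf2bp3, 13.3% of genes with ends of similar length held a match. A match is a run of letters and not a shown site of repression. Mature let-7 was not measured: the 9 let-7 hairpin genes in the table had at most 14 reads in any library.

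The promoter of Igf2bp3 is shown because it was the one gene of the set that passed a test. The RefSeq window runs from 250 bases before to 50 after the start, on GRCm38.p6 at chr6:49214905-49215204, minus strand, with E-boxes (CACGTG, the core that MYC-family factors bind, which reads the same on both strands) in capitals.
Igf2bp3 promoter: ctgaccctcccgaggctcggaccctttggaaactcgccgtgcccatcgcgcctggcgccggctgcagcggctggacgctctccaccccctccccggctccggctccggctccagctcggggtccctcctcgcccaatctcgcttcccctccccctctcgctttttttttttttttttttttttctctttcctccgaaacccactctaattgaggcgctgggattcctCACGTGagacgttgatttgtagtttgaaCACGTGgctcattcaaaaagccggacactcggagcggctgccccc

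Its 2 E-boxes begin 23 bases before the start and 5 bases after it. Of 32851 RefSeq promoters of that length, 7.15% held an E-box and 0.594% held at least 2. The table had a promoter for 5 of the 7 genes. Lin28b held 1 E-box, and Igf2bp2, Gpc3 and Hmga2 held 0.

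Each library held 17.6 to 26.7 M (mega) reads in genes, and the 30 pairs of libraries within groups differed by more than sampling noise. Their chi-square per degree of freedom was at least 8.53, and highest for WT_star 33 against WT_star 20 (101.7) and WT_star 21 (95.19). The closest pairs were WT 27 with WT 28 (8.527) and WT_star 20 with WT_star 21 (10.51). These libraries also held the highest Igf2bp3 values of their groups, 503.4, 590.8, 578.7 and 539.2 in that order. Whether libraries of such a pair are related was not tested. Khdc3, an oocyte gene, had 0 to 4 reads in KO_star, 1 in each WT_star, 2 to 3 in KO and 0 to 1 in WT libraries, so its level in liver cannot check the genotype labels. The labels give hepatocyte as the cell type. All 7 hepatocyte markers were present, with a summed value of 1663600 to 2687783 per library, but Kupffer cell markers (6 genes, 4344 to 8926), stellate cell markers (6 genes, 6544 to 10385) and endothelial markers (5 genes, 6688 to 9364) were present in every library too. In such bulk RNA, fewer cells of a type and less RNA per cell cannot be told apart. Among fetal and cell division genes the library KO_star 16 stood apart. Its H19, the imprinted fetal RNA, was at 17510 against 25.41 to 181.4 in the other KO_star libraries. Its proliferation marker Mki67 was at 1304 against 275.7 to 396. Values of the KO_star group are given with and without KO_star 16 where it matters.

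Igf2bp3 (ENSMUSG00000029814.10, chromosome 6, 49085223 to 49214957 on GRCm38, minus strand) was the one gene of the set that passed the test in any tested comparison, and it was low in KO livers. Its KO libraries also lay wholly below its WT libraries, as did 9.49% of all genes tested. Levels are deposited values, gene reads divided by a size factor per library, in which 1 read is worth 0.792 to 1.18. In KO_star the lowest, median and highest values were 296.5, 472.1 and 864.6. WT_star libraries had 578.7, 539.2, 328.2 and 417.7. KO libraries had 67.26, 83.46 and 95.45. WT libraries had 331.7, 286.7, 503.4 and 590.8. The KO libraries lay below all 14 others, whose lowest value was 286.7, and the other 3 groups overlapped one another. The gap between KO and KO_star is the contrast that picked the gene. The share of all genes with KO below all 14 others was not counted.

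As means, Igf2bp3 stood at 498.8 ± 204.2 in KO_star (SD, n = 6), 465.9 ± 114.6 in WT_star (n = 4), 82.06 ± 14.15 in KO (n = 3) and 428.1 ± 143.1 in WT (n = 4). In reads, KO_star held 3126 in all, WT_star 1888, KO 251 and WT 1746. Per M reads in genes that was 24.5 (95% exact Poisson interval 23.7 to 25.4) in KO_star, 22.9 (21.9 to 23.9) in WT_star, 4.05 (3.56 to 4.58) in KO and 19.4 (18.5 to 20.4) in WT. These intervals cover counting error only and are far narrower than the spread between libraries. By mean the order was KO_star, WT_star, WT and KO, and only the step between WT and KO exceeded the spread.

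**Figure D1:**
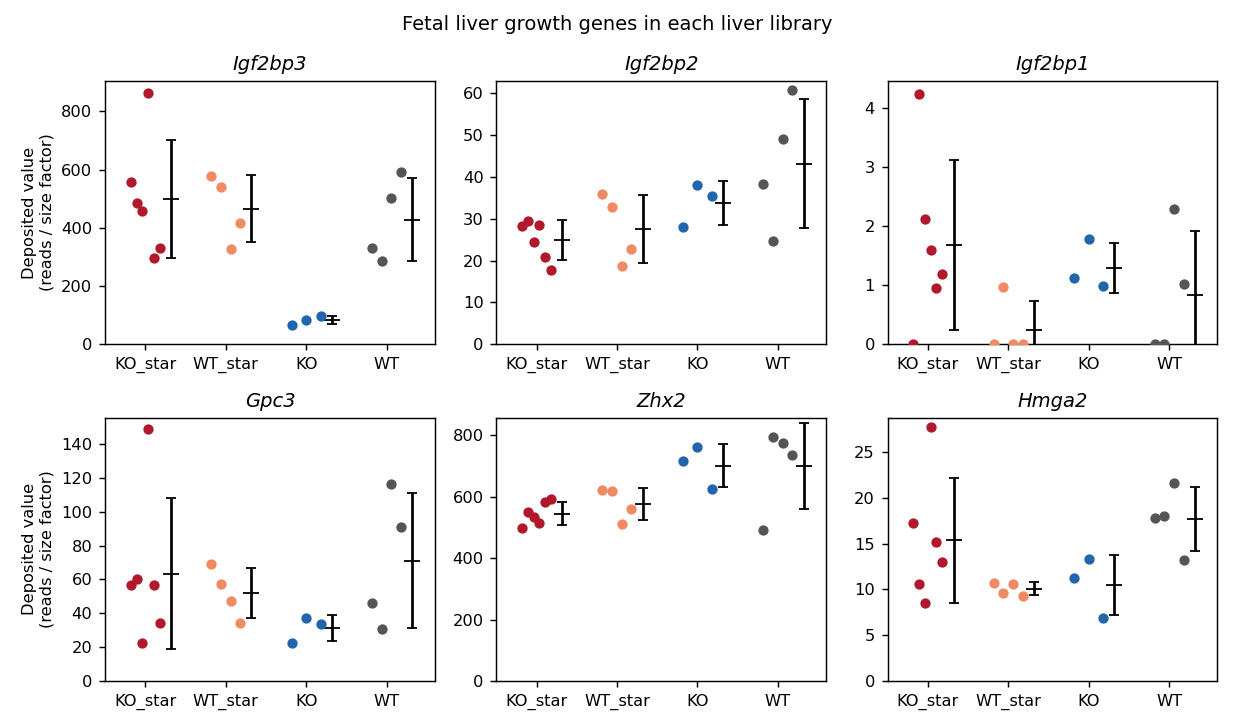
Deposited value of each gene (linear axes, reads divided by a size factor) in every library, by group. Points are libraries and the black marks are the group mean with its SD. Igf2bp3 lies between 67.26 and 95.45 in the 3 KO libraries and at 286.7 or more in the 14 others, while the groups of the other genes overlap more. The gap of Igf2bp3 between KO and KO_star is the contrast that picked the gene.

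In KO against WT, Igf2bp3 was 5-fold lower, a log2 difference of -2.32 (SE 0.329, 95% interval -3.02 to -1.62) with an adjusted p of 0.00136 in limma over 16157 genes. In that comparison 2.89% of all genes tested passed in either direction, and 1.57% of all genes tested passed as lower. Of the 5 tested genes of the set, 1 passed, as lower. The KO libraries are those of the contrast that picked Igf2bp3, so this p is not independent of the choice. With each of the 7 libraries left out in turn the difference lay between -2.49 and -2.15, with adjusted p-values of 0.00151 to 0.011. With edgeR or DESeq2 on the recovered reads and under the other settings it lay between -2.47 and -2.26.

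WT_star against WT is the one comparison whose groups share no library with the contrast that picked the gene. The spread behind its SE and p was still estimated over all 17 libraries, KO and KO_star included. In WT_star against WT Igf2bp3 differed by 0.15 (SE 0.304, 95% interval -0.498 to 0.796, adjusted p = 0.874 in limma). In KO_star against WT_star it differed by 0.04 (SE 0.278, interval -0.55 to 0.632, adjusted p = 0.984), and by -0.14 without KO_star 16. In KO_star against WT it differed by 0.19 (SE 0.278, interval -0.401 to 0.781, adjusted p = 0.827), and by 0.01 without KO_star 16. These intervals leave room for a change in either direction, and a p that misses the threshold does not show equal levels.

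In KO_star against KO, the contrast behind its choice, Igf2bp3 was 5.7-fold higher, a log2 difference of 2.51. Without KO_star 16 it was 2.34. The lowest KO_star library, at 296.5, lay above the highest KO library, at 95.45. Of all genes tested, 5.31% had KO_star libraries wholly above KO libraries, and 5.82% wholly below.

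Igf2bp2 (chromosome 16, 22059009 to 22163299), the family member most often found in adult tissue, was measured at 1.19 reads per M in KO_star, 1.36 in WT_star, 1.68 in KO and 1.96 in WT. Its lowest, median and highest values were 17.74, 26.36 and 29.57 in KO_star. WT_star had 35.83, 32.86, 18.82 and 22.69, KO had 28.02, 38.18 and 35.43, and WT had 38.24, 24.64, 49.08 and 60.8. All groups overlapped, with WT spread most widely. It did not pass in any tested comparison: -0.72 in KO_star against WT (SE 0.249, adjusted p = 0.23 in limma), -0.60 in WT_star against WT (adjusted p = 0.305), -0.12 in KO_star against WT_star (adjusted p = 0.95) and -0.28 in KO against WT (adjusted p = 0.701). In the contrast of KO_star and KO its difference was -0.44, of opposite sign to that of Igf2bp3.

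Igf2bp1 (chromosome 11, 95957163 to 96005940) was close to the detection limit. Over all libraries of a group it had 10 reads in KO_star, 1 in WT_star, 4 in KO and 3 in WT, and no library had more than 4. Per M reads these are 0.0785 (95% exact Poisson interval 0.0377 to 0.144) in KO_star, 0.0121 (0.000307 to 0.0675) in WT_star, 0.0645 (0.0176 to 0.165) in KO and 0.0334 (0.00688 to 0.0975) in WT. Exact two-sided permutation tests over samples gave p-values of 0.081 to 0.429 in the 4 comparisons, and 0.324 to 0.429 after adjustment over these. A difference was not detectable at this depth. In value its mean was 1.676 ± 1.434 in KO_star (SD, n = 6) and 1.294 ± 0.4231 in KO (n = 3), which overlapped.

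Set per kilobase of exon, which allows levels of different genes to be compared, the mean value of Igf2bp3 was 61.13 in KO_star, 57.11 in WT_star, 10.06 in KO and 52.47 in WT. For Igf2bp2 it was 3.364 in KO_star, 3.722 in WT_star, 4.577 in KO and 5.835 in WT, and for Igf2bp1 it was at most 0.1731. Igf2bp3 was thus the most abundant of the 3 family members in every group by this measure, in KO livers too. Zhx2 stood higher still, at 122.9 in KO_star, 130.4 in WT_star, 158.2 in KO and 157.8 in WT.

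Gpc3 (chromosome X, 52272426 to 52613950) varied widely within groups. In KO_star its lowest, median and highest values were 22.23, 56.8 and 149, and the highest was KO_star 16, with the next at 60.2. WT_star had 68.98, 57.02, 47.05 and 34.03, KO had 22.42, 37.29 and 33.46, and WT had 46.24, 30.39, 116.4 and 91.2. KO libraries sat at the low end of all groups and overlapped each of them. The difference was -1.01 in KO against WT (SE 0.519, interval -2.11 to 0.0869, adjusted p = 0.349 in limma). It was -0.31 in WT_star against WT (adjusted p = 0.825), 0.08 in KO_star against WT_star (adjusted p = 0.979) and -0.23 in KO_star against WT (adjusted p = 0.876). In the contrast of KO_star and KO it was 0.79, and 0.49 without KO_star 16.

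Hmga2 (chromosome 10, 120361275 to 120476469) was at 7 to 35 reads a library. Its lowest, median and highest values were 8.47, 14.08 and 27.74 in KO_star, with the highest again in KO_star 16. WT_star had 10.75, 9.664, 10.59 and 9.282, KO had 11.21, 13.32 and 6.888, and WT had 17.79, 18.07, 21.69 and 13.17. The 4 WT_star libraries lay below the 4 WT libraries without overlap, as did 4.83% of all genes tested in that comparison, where 0.904% of genes passed. The difference was -0.74 in WT_star against WT (SE 0.312, adjusted p = 0.267 in limma) and -0.73 in KO against WT (adjusted p = 0.285). Neither passed, nor did 0.47 in KO_star against WT_star (adjusted p = 0.773) or -0.27 in KO_star against WT (adjusted p = 0.748). In the contrast of KO_star and KO it was 0.46, with overlap.

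Zhx2 (chromosome 15, 57694665 to 57839832), the repressor, was measured at 436 to 968 reads a library. KO_star ranged from 498.6 to 591.2 with a median of 541.9, and WT_star had 622.6, 617.5, 512.8 and 559. KO had 715.2, 763.6 and 625.8, and WT had 491.8, 795.1, 773.9 and 737.7. Both star groups were low beside KO and beside 3 of the 4 WT libraries, and WT 25 lay with the star groups. In KO against WT the difference was 0.02 (SE 0.136, interval -0.261 to 0.31, adjusted p = 0.958 in limma).

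Against WT, Zhx2 differed by -0.34 in KO_star (SE 0.115, adjusted p = 0.221 in limma) and by -0.25 in WT_star (SE 0.126, adjusted p = 0.358), and neither passed. Without WT 25 both did, at -0.50 (adjusted p = 0.0106) and -0.41 (adjusted p = 0.0402). With each other library left out neither passed, so these calls depend on 1 WT library. In KO_star against WT_star the difference was -0.08 (adjusted p = 0.921). In KO_star against KO, Zhx2 differed by -0.36, with KO_star libraries wholly below KO libraries, as were those of 5.82% of all genes tested. This is given as a description.

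**Figure D2:**
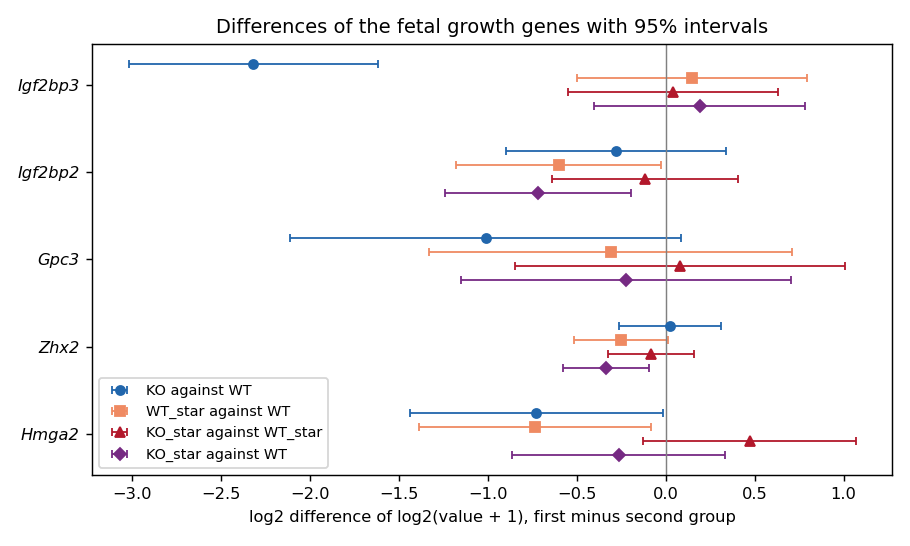
Log2 difference of log2(value + 1), first group minus second, for the 5 tested genes in the 4 tested comparisons, with 95% intervals from limma. The interval of Igf2bp3 in KO against WT, -3.02 to -1.62, is the farthest from 0. The comparisons share groups, KO_star against KO is not drawn, and intervals are not adjusted for the number of genes.

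Counted together, 1 of the 5 tested genes passed in KO against WT and 0 in the other 3 comparisons. The 1 was Igf2bp3, picked on a contrast that holds the same KO libraries, so the count is no independent result about the set. Of all genes tested, 2.89% passed in KO against WT and 0.904% in WT_star against WT. Over all genes 0% passed in KO_star against WT_star, where limma and edgeR called 0 genes, DESeq2 called 62 and 1185 genes (7.33%) had an unadjusted p under 0.05 in limma. Without WT_star 33, limma called 6 genes there and 2080 had an unadjusted p under 0.05. In KO_star against WT 0.706% passed. KO against WT, WT_star against WT and KO_star against WT have the WT libraries in common, so their values for a gene are not independent.

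The surrounding pathway genes were counted from lists, which overlap in some members. The shares of all genes that passed were 2.89% in KO against WT and 0.904% in WT_star against WT. They were 0% in KO_star against WT_star and 0.706% in KO_star against WT. At these shares 0 calls in a short list, here and in the lists below, says little. Of the 11 genes known as IGF2BP partners or target messages, 0 passed in any tested comparison over all 17 libraries, with a median log2 difference of -0.18 in KO against WT and 0.04 in WT_star against WT. Over all genes tested the medians in those comparisons were 0.0079 and 0.0021. Among the targets was Myc, the growth factor-induced transcription factor whose message IGF2BP proteins protect. It averaged 463.8 ± 440.5 in KO_star (SD, n = 6), 112.1 ± 37.58 in WT_star (n = 4), 134.3 ± 15.13 in KO (n = 3) and 409.7 ± 489 in WT (n = 4), with a difference of -0.95 in KO against WT (adjusted p = 0.683 in limma). Igf2, the fetal growth factor the family is named for, averaged 5.066 ± 1.592 in KO and 9.542 ± 7.041 in WT (adjusted p = 0.815 in limma).

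Of 9 tested genes of let-7 processing, 0 passed in limma over all 17 libraries. The shares of all genes that passed were 2.89% in KO against WT and 0.904% in WT_star against WT. At these shares 0 calls in lists this short says little about let-7. Tut4, the enzyme that tails let-7 precursors held by Lin28, had the smallest adjusted p among the 9 genes in KO against WT. It averaged 1389 ± 338.8 in KO_star, 1016 ± 124.1 in WT_star, 1012 ± 55.66 in KO and 1506 ± 257.1 in WT. Its difference was -0.56 in KO against WT (adjusted p = 0.113 in limma) and -0.56 in WT_star against WT (adjusted p = 0.115). In KO_star against WT it was -0.14 (adjusted p = 0.762). Of 13 further let-7 target genes 0 passed in the same fit, and 6 were higher and 7 lower in KO against WT. Mycn was at 20.37 ± 7.61 in WT_star and 64.45 ± 35.03 in WT (-1.53, adjusted p = 0.0959 in limma).

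Among glypicans and the enzymes of heparan sulfate, 1 of 8 tested genes passed in KO against WT, where 2.89% of all genes did and 1.57% as lower. Gpc1, a glypican of many adult tissues, had 25.78, 39.07 and 26.57 in KO, against 51.58, 53.39, 47.94 and 58.77 in WT. The KO libraries lay below the WT libraries, with a difference of -0.80 (SE 0.195, adjusted p = 0.0352 in limma). That call was lost when any of 6 of the 7 libraries was left out. Gpc4, another glypican, was at 2272 ± 260.1 in KO and 2517 ± 376.5 in WT (adjusted p = 0.577).

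Of the 7 Zhx relatives and other postnatal repressors, 0 passed in any comparison in limma over all 17 libraries. In KO_star against WT, Zfhx3 passed as higher with library weights and with DESeq2. Zhx1 and Zhx3, the partners with which Zhx2 can pair, differed by 0.05 and -0.02 in KO against WT. Of the 8 genes listed as Zhx2 targets in mouse liver, 1 passed in KO against WT, beside 1.57% of all genes that passed as lower. This was Lpl, lipoprotein lipase, the enzyme that releases fatty acids from circulating triglyceride, with 271.3, 374.7 and 354.3 in KO, against 2504, 1298, 5005 and 5597 in WT. Every KO library was below every WT library, a difference of -3.22 (SE 0.694, adjusted p = 0.026 in limma). Of the 12 genes of the IGF2 axis, 1 passed in KO against WT, again beside 1.57% of all genes as lower: Igfbp3, the main carrier of IGF in serum, at 882.4 ± 82.19 in KO (n = 3) and 1623 ± 174.7 in WT (n = 4), a difference of -0.88 (SE 0.202, adjusted p = 0.0283).

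The fetal liver genes silenced after birth gave 0 calls among 12 tested in each comparison in the fit over all 17 libraries. In KO against WT 10 of the 12 were lower and 2 higher, with a median of -0.65 and 6 at an unadjusted p under 0.05, where 16.7% of all genes were. H19 had 5.605, 2.664 and 3.936 in KO, 3 to 5 reads each, against 80.04, 37.78, 124.4 and 119.6 in WT. All KO libraries were lower, and the test gave -4.08 with an SE of 1.73 and an adjusted p of 0.249 in limma. This call depends on the libraries that enter the estimate of spread: without KO_star 16 the adjusted p of H19 was 0.0121, and with only KO and WT in the fit it was 0.000496. With only KO and WT in the fit, Afp (adjusted p = 0.0494) and Cdkn1c (0.0365), a cell cycle inhibitor, passed too, so that 3 of the 12 fetal genes were called, all lower, beside 2.69% of all genes called as lower in that fit. Afp, the fetal serum protein, had 4.484, 0.8879 and 0.984 in KO, against 8.893, 6.571, 13.7 and 16.21 in WT (adjusted p = 0.139). The KO values of Afp rest on 6 reads in all, and those of KO 31 and KO 32 are 1 read each. Peg3, an imprinted gene of the same list, was higher on average, at 2608 ± 674.6 in KO and 1405 ± 280.4 in WT (0.88, adjusted p = 0.154).

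**Figure D3:**
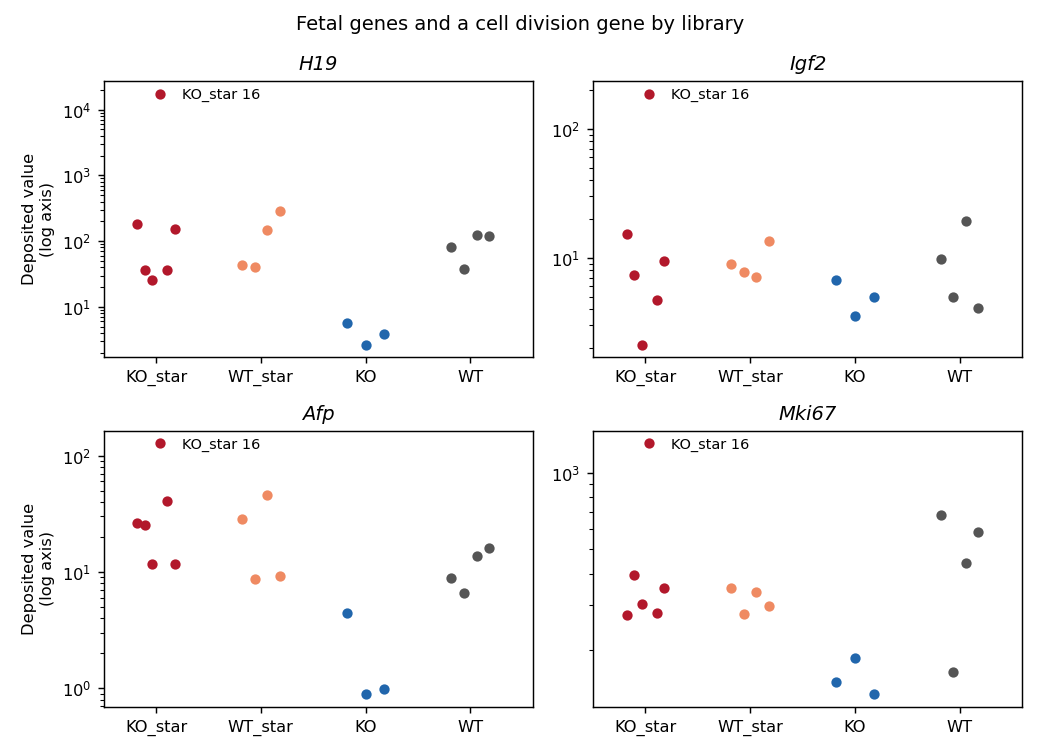
Deposited values (log axes) of the fetal genes H19, Igf2 and Afp and of the cell division gene Mki67 in every library, by group. KO_star 16 is the highest library for all 4 genes, with H19 at 17510. H19 and Afp are lowest in the 3 KO libraries, with adjusted p-values against WT of 0.249 and 0.139 in limma over all 17 libraries. The KO values of Afp rest on 6 reads in all.

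Other lists differed in the same livers. All 19 cell division genes were lower in KO than in WT, with 0 past the threshold. Their median was -1.34, beside 0.0079 over all genes tested. An unadjusted p under 0.05 in limma was reached by 13 of the 19 and by 16.7% of all genes tested. All 19 were lower in WT_star than in WT too, with 0 past the threshold, a comparison in which Igf2bp3 differed by 0.15. The median there was -0.40, beside 0.0021 over all genes tested. The summed value of the 19 genes was 1580 to 7743 in KO_star, 1857 to 2325 in WT_star, 1283 to 1468 in KO and 1743 to 3404 in WT. KO libraries were thus lowest in this sum as in Igf2bp3. Without WT 26, 4 of the 19 passed, all lower, where 1.39% of all genes passed as lower. With KO_star 16 left out of the estimate of spread 9 of the 19 passed, all lower, among them the proliferation marker Mki67 and the mitotic kinase Cdk1, beside 2.25% of all genes. With only KO and WT in the fit 6 did, beside 2.69% of all genes. The highest library in both the sum and Igf2bp3 was KO_star 16, and without it the KO_star sums were 1580 to 2504.

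**Figure D4:**
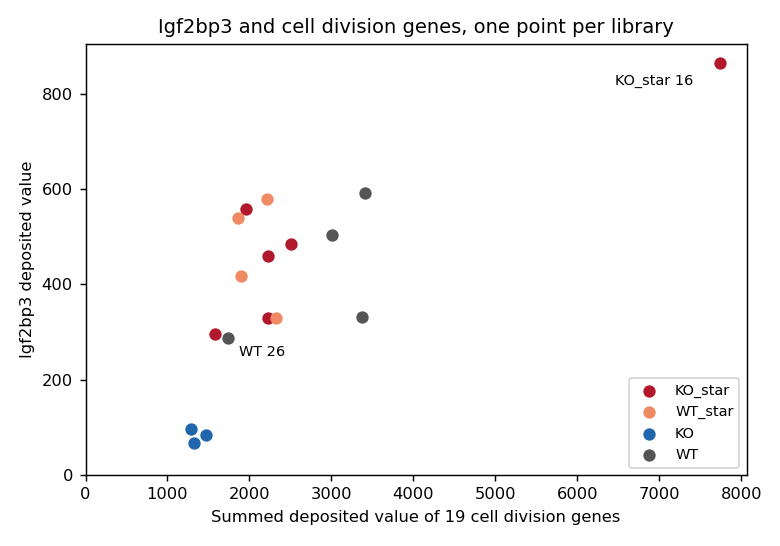
Igf2bp3 (deposited value, vertical axis) against the summed deposited value of 19 cell division genes (horizontal axis), 1 point per library. The 3 KO libraries are lowest on both axes, with sums of 1283 to 1468, and KO_star 16 is highest on both, with 864.6 and 7743.

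Some cell type markers passed as well. Of all genes tested, 2.89% passed in KO against WT, 1.57% as lower, and 0.904% passed in WT_star against WT. Of 7 hepatocyte markers, Alb and Cps1 passed as lower in KO against WT and 6 were lower. The 7 had sums of 2054550 to 2687783 in KO_star, 1894151 to 2148568 in WT_star, 1663600 to 1886013 in KO and 2494894 to 2567716 in WT. Alb made up most of each sum, with 1265793 of 1663600 in KO 30 and 2118660 of 2526318 in WT 25. Of 6 stellate cell markers, all lower, Pdgfrb passed, with sums of 6544 to 10385 in KO_star, 7015 to 8327 in WT_star, 7180 to 7661 in KO and 8486 to 9863 in WT. Of 7 B cell markers, all higher, Igkc passed, with sums of 149 to 228 in KO_star, 147.8 to 289.3 in WT_star, 182 to 214 in KO and 82.08 to 158.5 in WT. Apoa1 among hepatocyte markers was lower and Ighm among B cell markers was higher in WT_star against WT, where Igf2bp3 did not pass. Both of these calls were lost with edgeR and with only the groups compared.

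For cholangiocytes and blood cells 0 markers passed, and Hba-a1 was at 0 in all KO and WT libraries. Kupffer cell and endothelial markers gave 0 calls too in limma over all 17 libraries, and with library weights the endothelial marker Clec4g passed as lower in WT_star against WT. The part of cell division or of cell types in the level of Igf2bp3 was not tested.

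Of the tested genes with a common symbol, the 5 whose log2(value + 1) followed Igf2bp3 most closely over the 17 libraries were Ociad2 (Pearson r = 0.91), Adamts9 (0.90), Lpl (0.89), Aldoc (0.89) and Col4a1 (0.89). These are descriptions: the points share their size factors, and they include the 3 low KO libraries. Over the 14 libraries other than KO, r was 0.68 for Ociad2, 0.73 for Adamts9, 0.69 for Lpl, 0.87 for Aldoc and 0.80 for Col4a1. Aldoc, a glycolytic aldolase, and Col4a1, a basement membrane collagen, stayed closest there.

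Within the set itself the likeness was uneven. Over the 17 libraries r with Igf2bp3 was 0.64 for Gpc3, 0.35 for Hmga2, 0.05 for Igf2bp2 and -0.40 for Zhx2. Over the 14 libraries other than KO it was 0.68 for Gpc3, 0.19 for Hmga2, 0.51 for Igf2bp2 and -0.07 for Zhx2. Gpc3 thus kept its value without KO, while that of Zhx2 came close to 0. KO_star 16 was the highest library for both Gpc3 (149) and Igf2bp3 (864.6), and r without it was not computed.

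Of the genes most like Igf2bp3, Ociad2, which encodes a protein with an OCIA domain, had 91.92, 133.2 and 123 in KO, against 210.8, 191.4, 316.2 and 411.4 in WT. The KO libraries were lower without overlap (-1.22, SE 0.27, adjusted p = 0.0219 in limma). Adamts9, a secreted metalloprotease, averaged 99.97 ± 15.18 in KO and 210.3 ± 58.94 in WT (-1.02, adjusted p = 0.0169). Aldoc (-0.63, adjusted p = 0.105) and Col4a1 (-0.59, adjusted p = 0.0563) did not pass. As these genes were picked for following Igf2bp3, their difference in KO against WT is not further evidence.

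No neighbour of Igf2bp3 passed a test. Within 1 Mb of the start of Igf2bp3, 27 other genes were tested, and 0 passed in any of the 4 comparisons. The shares of all genes that passed were 2.89% in KO against WT and 0.904% in WT_star against WT. They were 0% in KO_star against WT_star and 0.706% in KO_star against WT. At these shares, 0 calls among 27 genes says little about the neighbours. In KO against WT the 27 genes differed by -0.51 to 1.25 with a median of -0.07, and the smallest adjusted p was 0.0611 in limma, for Rarres2. The nearest on either side were Malsu1, a mitochondrial ribosome factor at 324 ± 18.99 in KO and 356.6 ± 30.09 in WT (-0.14, adjusted p = 0.536 in limma), and Tra2a, a splicing factor at 569.6 ± 98.9 in KO and 591.4 ± 53.6 in WT (-0.06, adjusted p = 0.835). Malsu1 lies on the opposite strand and overlaps the end of Igf2bp3 by 1529 bases. The strand setting of the authors' counting is not given in the sources used here, so reads there cannot be told apart.

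**Figure D5:**
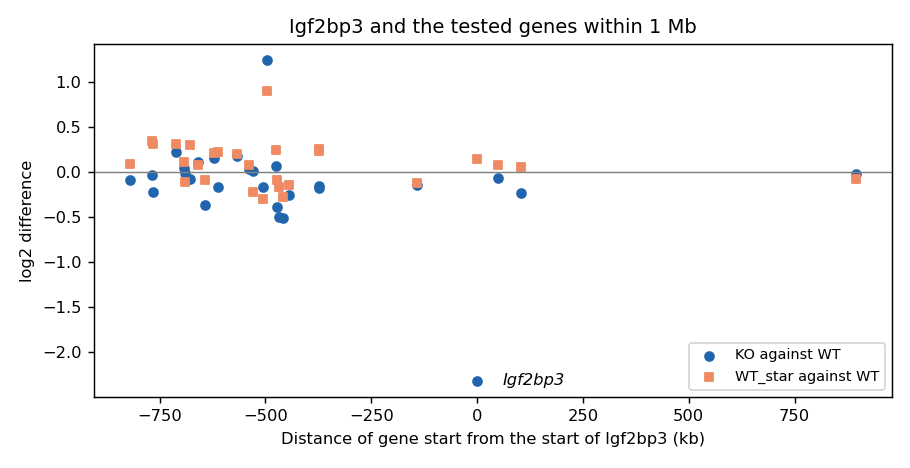
Log2 difference of Igf2bp3 and of the 27 tested genes within 1 Mb, against the distance of each gene's start from that of Igf2bp3 in kilobases, with higher chromosome positions to the right. In KO against WT Igf2bp3 lies at -2.32 and its neighbours between -0.51 and 1.25. In WT_star against WT it lies at 0.15.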

How the data were processed

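The authors deposited 1 table of normalized values for 17 liver libraries, a signal of gene reads divided by a size factor. Per the submitters' processing notes, cutadapt, HISAT2 and DESeq2 were used with GRCm38. For counting, the tool, annotation and strand setting are not given in the sources. All values (100%, tolerance 0.001 reads) were whole multiples of a library's smallest value, which gave the reads. As log2(value + 1) they were tested with limma 3.58.1 in R 4.3.3 (trended, robust variance with statmod 1.5.0), 1 mean per group, two-sided, with Benjamini-Hochberg adjustment over 16157 genes and a threshold of 0.05. This scale understates changes of low genes. On recovered reads, edgeR 4.0.16 called 438 genes in KO against WT and DESeq2 1.42.0 called 865. The statistics were tested on simulated data. Identifiers of 26963 genes matched GENCODE M21. Genes and lists were chosen with earlier results of these data known. Named genes are the 7, up to 4 called genes per list, the 5 most like Igf2bp3 and called neighbours. Other named genes were chosen after their values were seen.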

Additional observations from a re-analysis of the deposited data

Results flagged for a closer look

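A sample was singled out where its gap to the nearest library of its group was large for the range of that group, which chance gives in about 1 of 20 groups. In KO_star 16 this held for Gpc3 at 149 (the other 5 libraries lay at 22.23 to 60.2), H19 at 17510 (25.41 to 181.4), Igf2 at 187 (2.118 to 15.2), Afp at 127.6 (11.65 to 40.74) and Grb10 at 955.7 (263.7 to 434.8). The same library stood out for Cdkn1c at 203.7 (38.12 to 93.41), Spink1 at 16.64 (0 to 2.112) and Mki67 at 1304 (275.7 to 396). It was also the highest KO_star library for Igf2bp3 and Hmga2, without meeting that criterion.

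In WT_star, Igf2bp1 in WT_star 21, at 0.9664, and Spink1 in WT_star 34, at 1.031, stood out because the other 3 libraries were at 0. Each of these values is 1 read.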

How the results depend on the processing

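Genes passing in KO against WT numbered 467, but 865 with DESeq2, 1280 with library weights, 754 with only the groups compared and 150 to 388 without 1 library (282 or fewer without KO 30, KO 31, KO 32, WT 27 or WT 28). Under the same settings and in the same order, the 146 in WT_star against WT became 602, 757, 96 and 33 to 184, and the 114 in KO_star against WT became 341, 201, 68 and 51 to 134. In KO_star against WT_star the 0 became 62 with DESeq2, 13 with library weights and 0 to 20 without 1 library. With equal library totals KO against WT gave 338 higher and 188 lower, not 213 and 254, and WT_star against WT gave 106 and 41, not 86 and 60. Without KO_star 16 in the estimate of spread, KO against WT gave 617. Igf2bp3 in KO against WT kept its call in all 18 alternatives. Each alternative uses KO libraries of the contrast that picked the gene, so this is no independent result. Of the lists in KO against WT, fetal liver genes gave 1 call with library weights (Afp) and 1 with DESeq2 (Peg3), cell division genes gave 9 and 3, and both gave 0 with edgeR. Gpc1 did not pass with only the groups compared, nor Pdgfrb with edgeR. Of the let-7 lists, Tut4 and Hmga1 passed in KO against WT with only the groups compared and Mycn with library weights. In WT_star against WT, Tut4 and Mycn passed with DESeq2, and Mycn, Insr and Drosha with library weights. Of the IGF2BP partners and targets, Cd44 and H19 passed in KO against WT with only the groups compared.

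Differences close to 0 changed sign. With library weights Igf2bp3 was at -0.20 in KO_star against WT_star and -0.07 in KO_star against WT, Gpc3 at -0.13 in KO_star against WT_star, and Zhx2 at -0.03 in KO against WT. Without 1 library, Igf2bp3 lay between -0.14 and 0.17 in KO_star against WT_star (-0.14 without KO_star 16, -0.12 without WT_star 33, -0.01 without KO_star 12) and between -0.02 and 0.32 in WT_star against WT (-0.02 without WT 26). Igf2bp2 in KO_star against WT_star lay between -0.28 and 0.02, the highest without WT_star 20. Gpc3 lay between -0.21 and 0.33 in KO_star against WT_star (-0.21 without KO_star 16, -0.10 without WT_star 34) and between -0.56 and 0.07 in KO_star against WT (0.07 without WT 27, 0.02 without KO_star 14). Zhx2 in KO against WT lay between -0.14 and 0.10 (-0.14 without WT 25, -0.04 without KO 31). The cause was not tested. Alternatives on the lists and without KO_star 16 in the estimate of spread were chosen after seeing the data. No paired analysis was possible because no replicate number occurs in more than 1 group. Reads carry no molecular identifiers, so a floor of 3 reads, 2.38 to 3.55 in value, limits Igf2bp1, and Afp in KO 31 and KO 32.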
